A study of Arabidopsis thaliana with 4 samples.

Results

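Transcripts of 33 genes of cell wall loosening were compared between endosperm of Arabidopsis thaliana, dissected with a laser at 4 days after pollination, and the silique tissue left after the dissection. The genes belong to 3 families: expansins, xyloglucan endotransglucosylase/hydrolases (XTH) and glycoside hydrolases of family 9 (GH9). They were taken by gene symbol from the platform's gene table, which names 46 probes of these families, 1 probe per gene. Of these, 33 probes had a value on each of the 4 arrays and were tested among the 19449 probes with such values (16 expansins, 5 XTH and 12 GH9 genes), 7 had values on some arrays and 6 on none. Each of 3 endosperm samples was hybridised against the same reference RNA on 2-colour arrays: the endosperm channel was Cy3 for replicate 1 and Cy5 for replicate 3, and replicate 2 had 2 arrays, 1 with each dye. The reference was scraped from 1 slide after dissection, per the series' design text, while the sample descriptions call it whole silique RNA. The sources used here give no genotype, ecotype or growth conditions, and do not say whether separate plants stood behind the replicates. The p-values therefore cover only the spread between these samples, which may be technical.

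Plant cells enlarge when the cellulose network of their primary wall yields to turgor. Expansins loosen the contacts between cellulose and xyloglucan without cutting them, and act best in an acidified wall. XTH enzymes cut xyloglucan, the hemicellulose that coats and tethers cellulose, and either rejoin the cut end to another chain or hydrolyse it. GH9 enzymes are endo-glucanases: the A class is anchored in the membrane and includes KORRIGAN, which acts in cellulose synthesis, the B class is secreted, and the C class is secreted and carries an added carbohydrate-binding module. At this stage the endosperm is proliferating, for most of its volume as a syncytium whose nuclei share a cytoplasm without walls between them, while the surrounding silique wall and seed coat are made of walled cells.

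Values are log ratios per array, taken as log2 of endosperm over the reference, so that 1 is a doubling and a negative value is a lower level in endosperm. Neither the log base nor the numerator is stated in the sources used here, and endosperm is the likely numerator because the median of 8 measured endosperm marker genes was above 0 on every array (1.36, 1.64, 1.73 and 1.01). With the opposite numerator, every higher and lower below would trade places. The mean of the 3 replicates was tested against 0 with limma over all 19449 probes, and a gene passed at a Benjamini-Hochberg adjusted p under 0.05. In RNA taken from many cells, fewer cells that express a gene and less transcript per cell cannot be told apart.

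Transcripts of wall-loosening genes were lower in endosperm more often than higher. Of the 33 genes 18 were lower, 6 were higher and 9 did not pass. Over all probes 25.5% were lower and 32.0% higher, or 57.5% called in all, against 54.5% lower, 18.2% higher and 72.7% called among the wall-loosening genes. The median log2 ratio of the 33 genes was -0.67, against 0.11 over all probes. Means more than 4-fold below the reference were found for 7 genes (21.2%), a size reached by 5.34% of all probes. Means more than 4-fold above it were found for 2 of the 33 genes, against 1.75% of all probes (341 of 19449). Both shares were thus larger among the 33 genes, although the second rests on 2 genes. The first depends on genes near the cutoff: GH9B7 (-2.002), GH9B9 (-2.08) and EXLA3 (-2.13). Without replicate 3 these were less than 4-fold lower (-1.77, -1.64 and -1.88). With arrays centred on their median, EXPA15 also came to lie beyond the cutoff (-2.05). The share of all probes beyond it was not counted in these settings. When tested against a fold change of 1.5 instead of no change, 19 of the 33 genes passed, 14 lower and 5 higher. Of all 19449 probes 25.1% did, 2521 lower and 2364 higher. By this test, unlike the one against no change, the share of higher genes was not below that of all probes. By family, 11 of 16 expansins (68.8%) and 7 of 12 GH9 genes (58.3%) were lower. Of the 5 XTH genes 0 passed as lower in limma (1 at an unadjusted p under 0.05). These are too few genes to be set apart from the 25.5% of all probes. XTH27 and XTH33, which fell outside the 5, were lower, as given below.

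**Figure D1:**
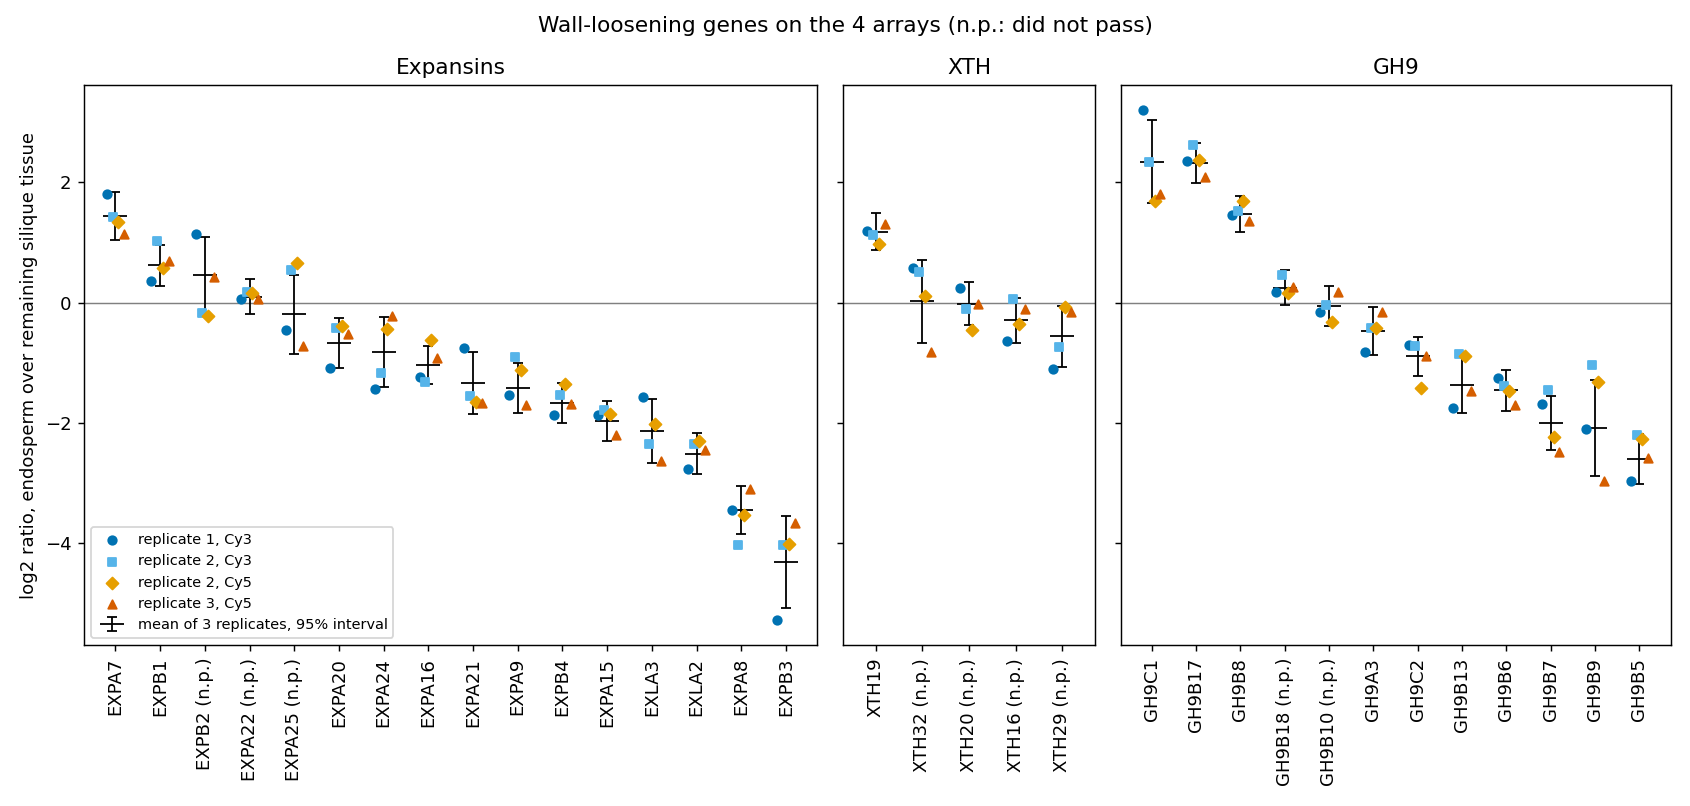
Log2 ratio of endosperm over remaining silique tissue (vertical axis) for the 33 genes on each of the 4 arrays, ordered within each family from the highest to the lowest mean. Points are arrays, horizontal marks are means of the 3 replicates with the 95% interval of the limma fit, and n.p. marks the 9 genes that did not pass; EXPB3 is lowest with points between -5.27 and -3.66, and GH9C1 and GH9B17 have the highest means, with points between 1.69 and 3.19 and between 2.09 and 2.62.

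The furthest from the reference was EXPB3, a beta-expansin. Its log2 ratios were -5.27 in replicate 1, -4.03 and -4.01 on the Cy3 and Cy5 arrays of replicate 2, and -3.66 in replicate 3. No array lay closer to the reference than replicate 3. The mean was -4.32 ± 0.84 (SD, n = 3), or 19.9-fold lower (limma adjusted p = 0.000215), which was the 31st lowest of all 19449 probes. A different beta-expansin, EXPB4, was also lower, at -1.86, -1.54, -1.36 and -1.69 in the same array order. Its mean of -1.67 ± 0.21 corresponds to 3.17-fold lower (adjusted p = 0.000305), and its arrays lay within 0.50 of each other.

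The other 2 measured beta-expansins were not lower. EXPB1 was higher in endosperm, at 0.36, 1.02, 0.58 and 0.69, with a mean of 0.62 ± 0.23 (1.53-fold, adjusted p = 0.0117). Its call was lost without replicate 2 (adjusted p = 0.0889). EXPB2 was at 1.14, -0.17, -0.22 and 0.42 and did not pass (0.46 ± 0.67, adjusted p = 0.173). Its arrays of replicate 2 agreed closely and lay below 0, while replicates 1 and 3 lay above it. Without replicate 2 it passed as higher (0.78, adjusted p = 0.0440). Over the 4 measured beta-expansins the means thus ran from -4.32 to 0.62. EXPB3 set the lower end, and the others ran from -1.67 to 0.62.

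Among the alpha-expansins, the class with the classical wall-loosening activity at acid pH, 7 of 10 measured genes were lower and 1 was higher, where 25.5% of all probes were lower and 32.0% higher, and 2 genes did not pass. EXPA8 was lowest, at -3.45, -4.03, -3.53 and -3.10 (replicate 1, replicate 2 with Cy3, replicate 2 with Cy5, replicate 3). Its mean was -3.44 ± 0.34, or 10.9-fold lower (adjusted p = 0.000125), the 182nd lowest of all probes. EXPA15 was at -1.86, -1.79, -1.85 and -2.20, 3.90-fold lower on average (-1.96 ± 0.21, adjusted p = 0.000201). The arrays of EXPA15 lay within 0.41 of each other, the closest of the alpha-expansins that passed. EXPA9 followed at -1.54, -0.90, -1.12 and -1.70 (-1.42 ± 0.36, adjusted p = 0.00104), and EXPA21 at -0.75, -1.54, -1.65 and -1.67 (-1.34 ± 0.51, adjusted p = 0.00283). In EXPA21 replicate 1 was the least far from 0, and the other 3 arrays were close to each other.

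Smaller decreases were found for EXPA16, EXPA24 and EXPA20. EXPA16 was at -1.23, -1.32, -0.62 and -0.91, or 2.05-fold lower (-1.04 ± 0.17, adjusted p = 0.00120). EXPA20 was at -1.08, -0.42, -0.40 and -0.52 (-0.67 ± 0.36, adjusted p = 0.0171), with replicate 1 below the others. EXPA24 had values of -1.44 and -1.16 with Cy3 and of -0.44 and -0.23 with Cy5 (-0.82 ± 0.61, adjusted p = 0.0273). All of its arrays were below 0, but the arrays of the 2 dyes did not overlap. It no longer passed when replicate 1 (adjusted p = 0.0573) or replicate 2 (adjusted p = 0.0763) was left out, or with the Cy5 arrays by themselves (-0.33, adjusted p = 0.0915).

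EXPA7, known from root hairs, was the alpha-expansin with a higher level in endosperm. It was at 1.80, 1.43, 1.34 and 1.13, above 0 on each array, with a mean of 1.44 ± 0.34 (2.71-fold, adjusted p = 0.000851). EXPA22 was close to the reference, with all 4 arrays between 0.06 and 0.17 (0.10 ± 0.06, adjusted p = 0.502). EXPA25 did not pass either (-0.19 ± 0.70, adjusted p = 0.558), and its replicates were far apart: both arrays of replicate 2 were above 0 (0.54 and 0.66) and replicates 1 and 3 below it (-0.46 and -0.73).

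Expansin-like genes encode proteins with the domains of expansins whose wall-loosening activity has not been established. Both measured genes of the A group were lower. EXLA2 was at -2.76, -2.35, -2.30 and -2.44, or 5.70-fold lower (-2.51 ± 0.23, adjusted p = 0.000139). EXLA3 was at -1.57, -2.36, -2.01 and -2.63, or 4.38-fold lower (-2.13 ± 0.53, adjusted p = 0.000597). Every array put both genes more than 2-fold below the reference. The neighbour of EXLA3 on chromosome 3, EXLA1, had no value on any array. EXLB1 had values on the 2 Cy3 arrays alone, -4.34 in replicate 1 and -3.15 in replicate 2, so it was outside the main comparison. When probes with values in 2 or 3 replicates were kept, its mean was -3.75 (13.4-fold lower, adjusted p = 0.00117). EXLB2, listed under its locus AT4G30380 and therefore outside the symbol rule, was at -1.57, -1.20 and -1.75 on the 3 arrays with a value (replicate 2 with Cy3 and with Cy5, and replicate 3).

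The remaining expansins had incomplete values. EXPA4 was at 0.43, 0.51 and 0.48 on 3 arrays and passed as higher in the wider set of probes (0.48, 1.39-fold, adjusted p = 0.0153). EXPB5 was at 0.34, -0.08 and -0.05 on 3 arrays and did not pass there (0.14, adjusted p = 0.556). EXPA18, also known from root hairs, had no value on any array.

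**Figure D2:**
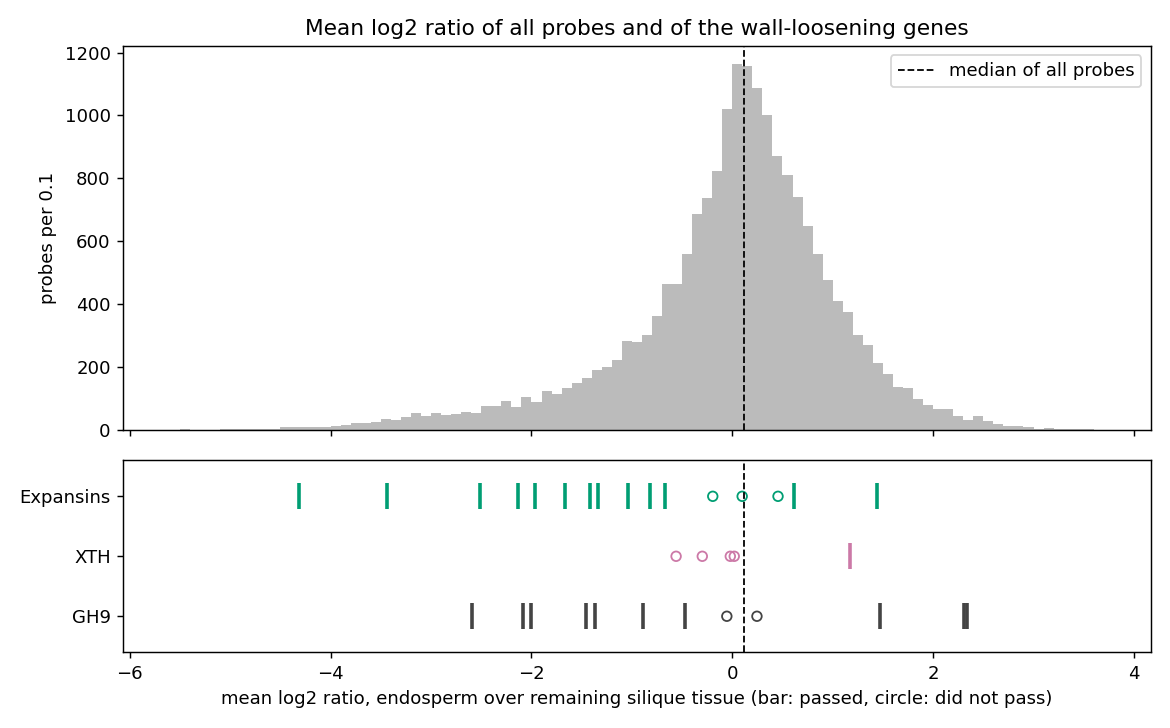
Distribution of the mean log2 ratio over all 19449 probes (upper panel, number of probes per bin of 0.1) and the same quantity for the genes of each family (lower panel, bars for genes that passed and circles for those that did not). The dashed line is the median of all probes, 0.11: 12 of the 16 expansin means lie below 0 and reach down to -4.32, the XTH means lie between -0.56 and 1.18, and the GH9 means spread from -2.60 to 2.33.

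Of the 12 measured GH9 genes 7 were lower (58.3%, against 25.5% of all probes) and 3 were higher (25.0%, against 32.0% of all probes). The other 2 did not pass, and the median log2 ratio was -0.68. The B class of secreted enzymes held 2 of the higher and 5 of the lower genes among its 9 measured members. GH9B5 was lowest, at -2.97, -2.20, -2.27 and -2.58, or 6.05-fold lower (-2.60 ± 0.37, adjusted p = 0.000179). GH9B7 had values of -1.69 and -1.45 with Cy3 and of -2.23 and -2.48 with Cy5, 4.01-fold lower on average (-2.002 ± 0.42, adjusted p = 0.000429). In GH9B7, as in EXPA24, the arrays of the 2 dyes did not overlap, but here all lay more than 2-fold below the reference. GH9B9 was at -2.11, -1.04, -1.32 and -2.97 (-2.08 ± 0.90, adjusted p = 0.00282), which was the largest SD between replicates among the 33 genes. GH9B6 was at -1.25, -1.39, -1.47 and -1.71 (-1.46 ± 0.23, adjusted p = 0.000499), and GH9B13 at -1.76, -0.85, -0.88 and -1.47 (-1.37 ± 0.46, adjusted p = 0.00194). For GH9B13 the arrays of replicate 2 were nearly equal and were the least far from 0.

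GH9B17 and GH9B8 were higher in endosperm. GH9B17 was at 2.35, 2.62, 2.37 and 2.09, all above 4-fold, with a mean of 2.31 ± 0.20 (4.96-fold, adjusted p = 0.000148). It was the 162nd highest of all probes. GH9B8 was at 1.45, 1.53, 1.69 and 1.35, or 2.77-fold higher (1.47 ± 0.13, adjusted p = 0.000341), and its arrays spanned 0.34. GH9B18 was above 0 on all 4 arrays, at 0.18, 0.45, 0.15 and 0.26, without passing (0.25 ± 0.06, adjusted p = 0.122). GH9B10 was on both sides of 0, between -0.33 and 0.17 (-0.05 ± 0.19, adjusted p = 0.746).

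The C class, whose enzymes carry a carbohydrate-binding module, had 1 gene on either side. GH9C1 was at 3.19 in replicate 1, 2.34 and 1.69 on the Cy3 and Cy5 arrays of replicate 2, and 1.80 in replicate 3. The mean was 2.33 ± 0.75, or 5.04-fold (adjusted p = 0.00105), the 154th highest of all probes. This mean was slightly above that of GH9B17, an order that turned without replicate 1 (1.91 for GH9C1 and 2.29 for GH9B17), among other settings. Its Cy3 arrays lay above its Cy5 arrays, and on the Cy5 arrays alone the mean was 1.74. GH9C2 was lower, at -0.71, -0.72, -1.42 and -0.89, or 1.85-fold (-0.89 ± 0.18, adjusted p = 0.00224). Of the membrane-anchored A class, GH9A3, also called KOR3 and a relative of KORRIGAN, was at -0.82, -0.43, -0.42 and -0.16 (-0.47 ± 0.33, adjusted p = 0.0495). This call was at the threshold and ended when replicate 1 (adjusted p = 0.128) or replicate 2 (adjusted p = 0.145) was left out, and with the Cy5 arrays by themselves (adjusted p = 0.137).

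Further GH9 genes had incomplete values. GH9B11 was above 0 on the 3 arrays that measured it, at 0.38 in replicate 1, 0.09 in replicate 2 and 1.35 in replicate 3, and did not pass in the wider set of probes (adjusted p = 0.10). GH9B15 had 1 value, -0.26 in replicate 1. GH9A4, GH9B12 and GH9B16 had none.

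Of the 5 XTH genes with values on all arrays 1 was higher (20.0%, against 32.0% of all probes) and 0 were lower (against 25.5% of all probes). The other 4 did not pass. Means ran from -0.56 to 1.18, with a median of -0.02. With 5 genes, these shares cannot be set apart from those of all probes. XTH19, which acts with XTH20 in the rejoining of cut stems, was the XTH gene that passed. It was at 1.18, 1.11, 0.97 and 1.31, or 2.26-fold higher in endosperm (1.18 ± 0.13, adjusted p = 0.000681), and its arrays lay within 0.34 of each other. XTH20 was at 0.25, -0.11, -0.45 and -0.03 (-0.02 ± 0.26, adjusted p = 0.917), and XTH16 was at -0.64, 0.06, -0.36 and -0.11 (-0.30 ± 0.30, adjusted p = 0.144). Neither passed, and both had arrays on either side of 0. The 95% interval of XTH20 ran from -0.38 to 0.34 and that of XTH16 from -0.68 to 0.08.

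The group of XTH27 to XTH33 includes XTH31, which mainly hydrolyses xyloglucan, and its close relative XTH32. XTH32 was at 0.57, 0.51, 0.12 and -0.83 (0.02 ± 0.75, adjusted p = 0.957), with an interval from -0.67 to 0.71, and its replicates 1 and 3 had opposite signs. With the Cy3 arrays by themselves XTH32 passed as higher (0.54, adjusted p = 0.0312), whereas the Cy5 arrays averaged -0.36 (adjusted p = 0.286). XTH29 had values of -1.11 and -0.74 with Cy3 and of -0.08 and -0.16 with Cy5, and narrowly missed the threshold (-0.56 ± 0.50, adjusted p = 0.0587). It passed as lower when replicate 3 was left out (-0.76, adjusted p = 0.0216) and with the Cy3 arrays by themselves (-0.93, adjusted p = 0.00514).

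XTH33, an XTH known to reside at the plasma membrane, lacked a value on the Cy5 array of replicate 2. On the other 3 arrays it was at -2.15, -1.64 and -2.21, and it passed in the wider set of probes, 3.996-fold lower (-1.999, adjusted p = 0.000450). XTH27 is listed under the symbol EXGT-A3, outside the symbol rule, and was also lower, at -1.003, -0.64, -1.54 and -2.04 (-1.38 ± 0.57, adjusted p = 0.00343). The statement that no XTH gene passed as lower therefore holds for the 5 genes that met the rule with values on all arrays, and not for the family. XTH26 had 1 value, 0.68 on the Cy5 array of replicate 2, and XTH21 had none.

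Several of these genes lie next to each other, and neighbours differed in their ratios. On chromosome 2, GH9B9 was lower on each array than GH9B10, the next gene, with a mean difference of -2.03. On chromosome 4, GH9B17 was above its neighbour GH9B18 on each array, by 2.07 on average. On chromosome 5, EXPA21 was below its neighbour EXPA22 on each array, with a mean difference of -1.44. EXPA24 and EXPA25, also adjacent there, lay closer (-0.82 and -0.19), and their order changed between arrays. The differences between neighbours were not tested, and cross-hybridisation between close relatives was not measured.

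**Figure D3:**
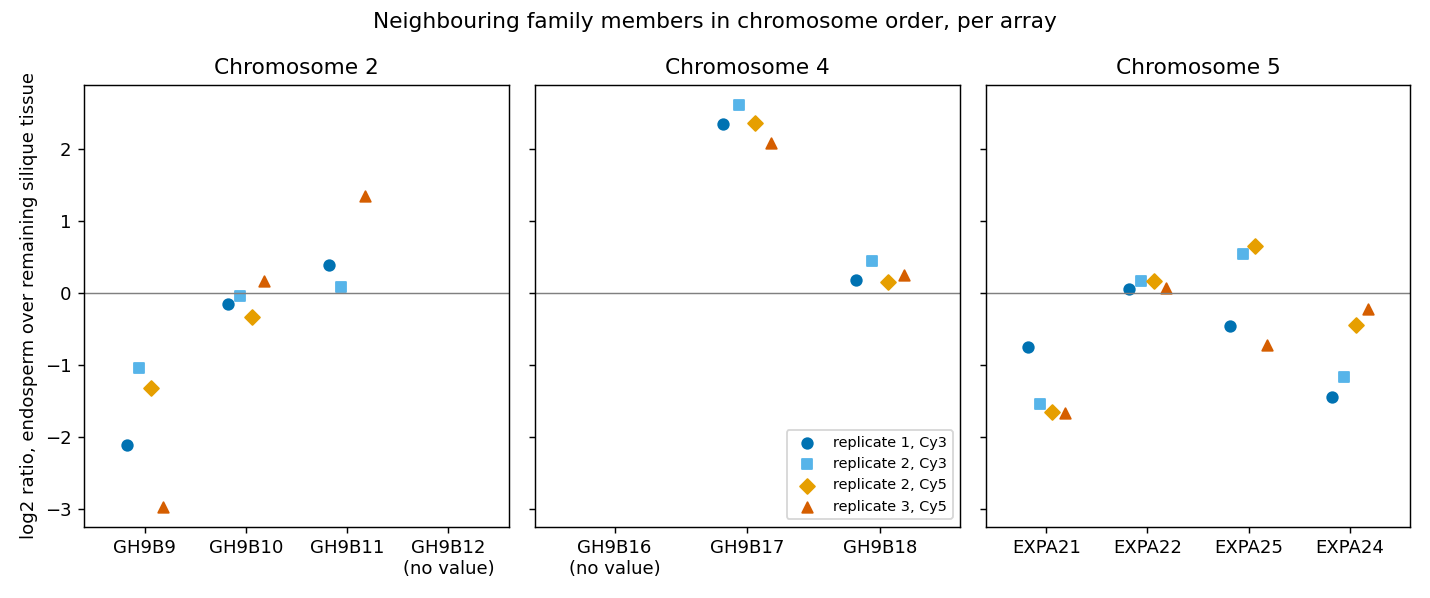
Log2 ratio of endosperm over remaining silique tissue (vertical axis) on each array for family members that lie close together, in chromosome order. Points are arrays, and GH9B12 and GH9B16 had no value; on every array GH9B17 (2.09 to 2.62) lies above GH9B18 (0.15 to 0.45), and GH9B9 (-2.97 to -1.04) lies below GH9B10 (-0.33 to 0.17).

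Replicates of wall-loosening genes varied somewhat more than those of all probes, with a median SD of 0.34 against 0.23. All 4 arrays had the same sign for 27 of the 33 genes (81.8%), against 71.7% of all probes. The dye of the endosperm channel had an unadjusted p under 0.05 for 6 genes (18.2%), GH9B7, GH9C1, XTH29, XTH32, EXPA16 and EXPA24, against 9.40% of all probes, and an adjusted p under 0.05 for 0 genes and 0 of all probes (limma with a dye term on 4 arrays). The median size of the gap between the Cy5 and Cy3 arrays was 0.29 for the 33 genes and 0.21 over all probes. In the mean of the 3 replicates the dyes are balanced. Outside replicate 2, dye and replicate cannot be told apart.

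**Figure D4:**
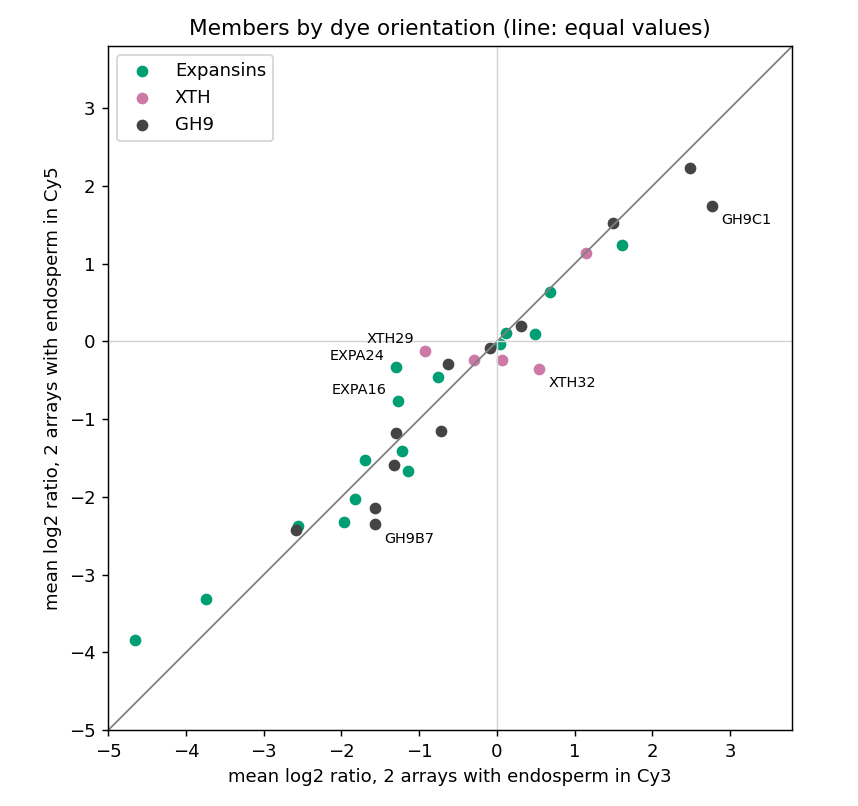
Mean log2 ratio of each of the 33 genes on the 2 arrays with endosperm in Cy3 (horizontal axis) and on the 2 arrays with endosperm in Cy5 (vertical axis), coloured by family, with the line of equal values. Labels mark the 6 genes with an unadjusted p under 0.05 for the dye; GH9C1 lies at 2.76 with Cy3 and 1.74 with Cy5, and EXPA24 at -1.30 with Cy3 and -0.33 with Cy5.

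Other genes of the primary wall were measured sparsely. Of 19 listed genes of xyloglucan assembly and trimming 4 were measured on all arrays, all of them CSLC genes for synthases of the xyloglucan backbone, and 3 were lower. CSLC5 was at -1.48 ± 0.19 (2.78-fold lower, adjusted p = 0.000404), CSLC6 at -1.39 ± 0.20 (2.62-fold lower) and CSLC8 at -0.86 ± 0.44, while CSLC12 did not pass (-0.29 ± 0.28). CSLC4 had no value in replicate 1 and was at -2.30 and -2.07 on the Cy3 and Cy5 arrays of replicate 2 and at -2.30 in replicate 3, further below the reference than the 4 tested CSLC genes. COB, which encodes a lipid-anchored protein needed for oriented cellulose deposition, was the 1 measured gene of the cellulose synthase list and was 6.32-fold lower (-2.66 ± 0.26, adjusted p = 0.000138). Of the wall-sensing receptor kinases, FER was lower (-1.43 ± 0.28, 2.70-fold, adjusted p = 0.000660) and THE1 did not pass (0.01 ± 0.19), and ANX1 had 1 value, 0.56 in replicate 1. Of the 7 genes of these lists with values on all arrays, 5 were lower and 0 higher (limma, 0 also at an unadjusted p under 0.05), where 25.5% of all probes were lower and 32.0% higher. No plasma membrane proton pump and no growth-related SAUR gene of the lists was measured on all arrays.

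The array values behind these results were broadly alike. The arrays held values for 21829 to 23171 of the 26912 probes, with medians between 0.05 and 0.12. Pearson's r between arrays over the 19449 probes, which are not independent, lay between 0.868 and 0.919. It was 0.916 for the dye swap of replicate 2, and 0.919 and 0.914 for different replicates with the same dye. For different replicates with different dyes it was 0.868 to 0.896. All arrays share the same reference RNA. Endosperm markers were higher in 7 of 8 measured genes (PHE2 at 2.97 ± 0.05 and PHE1 at 2.33 ± 0.45), but the direction of the ratios was itself taken from these markers. ALC, which acts in pod opening and was the single measured marker of silique wall and vascular tissue, was 5.29-fold lower (-2.40 ± 0.22, adjusted p = 0.000144). Of 3 measured seed coat markers, INO was lower (-0.73 ± 0.27, adjusted p = 0.00759), and BAN (-0.39 ± 0.28) and DFR (0.15 ± 0.27) did not pass. INO was at -1.05 and -1.03 with Cy3 and at -0.17 and -0.55 with Cy5, so its arrays of the 2 dyes did not overlap. None of 8 embryo markers was measured on all arrays. The part of these tissues in the ratios of the wall genes was not tested.

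Much of the families was outside the comparison. RefSeq's annotation of assembly TAIR10.1 holds 94 genes under these names, as symbol or synonym: 37 expansins, 33 XTH and 24 GH9 genes. Of these, 46 have no named probe here, including all 11 genes XTH1 to XTH11, 13 of 25 alpha-expansins and GH9A1, the gene of KORRIGAN. EXPA2, known from the endosperm of germinating seeds, and XTH22, the touch-induced TCH4, are also among them and were not analysed here.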

How the data were processed

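Per the labels' protocols, the RNA of both channels was amplified by 2 rounds of in vitro transcription before labelling, which can change proportions between transcripts. The authors deposited 1 value per probe and array, taken here as log2 ratios. The sources used here do not give the scanner, background correction, normalization, log base, numerator or the filter behind empty cells. No intensities were used, so dim spots could not be filtered. The number of arrays limits the precision.

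Probes were named from the platform's gene table (14539 named, 12373 unnamed and 0 with several genes), and all 46 family probes were matched to RefSeq, assembly TAIR10.1. The 2 arrays of replicate 2, a dye swap of the same extracts, were averaged before the fit. limma 3.58.1 in R 4.3.3 tested the mean of 3 replicates against 0 (lmFit, eBayes, two-sided) over all 19449 probes with values on all arrays. The reference was 1 RNA, so its own spread is left out. Errors are SDs over 3 replicates, and intervals are moderated 95% intervals.

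The members and lists were chosen with earlier results of these data known. All member genes are named. Array values are printed for those that passed and for most others, and from the other wall lists up to 3 genes that passed were named by smallest p, while CSLC12 and THE1 were added with their values in view, as the rest of a small count. Marker genes were named likewise. CSLC4 and ANX1, which lacked values on some arrays and were not tested, were also named, outside this rule. Correlation between the arrays of replicate 2 could not be estimated by duplicateCorrelation and was set by moments (0.33). Alternatives are each replicate left out, median centring, each dye alone, a dye term, 4 separate arrays, a random block, a 1.5-fold null, a wider set of probes and quantile normalization. No sequences were used here.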

Additional observations from a re-analysis of the deposited data

How the results depend on the processing

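Of the 24 genes called, 19 passed with the same sign under all 12 alternatives, and 5 lost the call under at least 1 (EXPA20 and GH9C2 only against a fold change of 1.5, and EXPA24, EXPB1 and GH9A3 also elsewhere). No called gene changed sign. Leaving out 1 replicate gave 22 to 25 called genes of the 33, where 43.7% to 56.6% of all probes were called (57.5% in the reported comparison). How many of all probes kept their call under all 12 alternatives was not counted. The number of higher expansins was 1 against a fold change of 1.5 (2 against no change). XTH genes passed as lower in 1 case (0 in the reported comparison) with arrays centred on their median, with the dye as a covariate, with 4 arrays as 4 samples, with quantile normalization and on the Cy3 arrays alone (XTH29 in each), and with probes kept that had 2 or 3 replicates (XTH33). Without 1 replicate this number was 0 to 1. On the Cy3 arrays alone 2 XTH genes were higher. On the Cy5 arrays alone the median log2 ratio of the 33 genes was -0.36. The genes that changed sign had reported means between -0.19 and 0.02. They were called neither there nor in the settings where the sign changed. For XTH32 and EXPA25 the replicates were far apart (SD 0.75 and 0.70). On the Cy3 arrays alone XTH32 kept its sign and was called as higher (0.54, limma adjusted p = 0.0312). XTH32 was at -0.072 with centring, -0.0043 with quantile normalization and -0.36 on the Cy5 arrays alone, and ran from -0.26 to 0.44 over the omissions of 1 replicate. EXPA25 was at 0.043 on the Cy3 arrays alone and at 0.0045 both with the dye as a covariate and with 4 arrays as 4 samples, and XTH20 was at 0.068 on the Cy3 arrays alone. Over the same omissions EXPA25 ran from -0.59 to 0.072, XTH20 from -0.15 to 0.11 and GH9B10 from -0.17 to 0.0089. GH9B17 lay above GH9C1, against the reported order, when replicate 1 was left out, on Cy5 arrays by themselves (2.23 and 1.74), with a dye term or 4 separate arrays (2.36 and 2.25) and with a random block (2.34 and 2.29). The cause of these changes was not tested. No paired analysis was possible because there is 1 group of samples. Without intensities, signal over background is unknown.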
